A study of Mus musculus with 18 samples.

Results

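The regions described here are accessible chromatin regions of mouse macrophages whose strongest point lies inside repeated DNA. In the catalog of accessible regions, the summit with the highest score was taken for each extended region (a reference peak widened by a flank and merged with its neighbours) on chromosomes 1 to 19. A summit was a member if 90% or more of the bases from 100 bp before to 100 bp after it were lower-case, that is repeat-masked, in the genome sequence. These bases are called its window. The rule held for 924 of 58386 regions, or 1.58% (95% Wilson interval 1.48 to 1.69%). The score decided which summit stood for a region, but not which of these summits were members.

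The catalog was made by ATAC-seq, in which the transposase Tn5 inserts adapters into open chromatin, from BMDMs, macrophages grown from the bone marrow of male C57/BL6 mice (wild type, aged 6 to 8 weeks). The 18 libraries formed 9 groups of 2. All cells received the vehicle DMSO for 1 h, and were then left untreated or given 10 ng/ml of LPS, the bacterial ligand of TLR4, or 10 ng/ml of the cytokine IL-4 for 30 min, 1 h, 2 h or 4 h. The deposited lists were pooled over all libraries and had 0 columns per library, so that no comparison between stimuli, time points or replicates could be made. Depth per library is therefore unknown from these lists. A reference peak overlapped the 1000 bp to either side of a start site for all 15 macrophage marker genes searched and for 4 of 14 marker genes of other tissues.

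Most interspersed repeats are remnants of transposable elements, which copied themselves into new places and carried their own promoter sequences with them. In many cell types most copies are silenced in heterochromatin, while single copies can be bound by transcription factors and act as enhancers or promoters of nearby genes. Short interspersed elements such as B2 derive from RNA polymerase III genes and keep its internal promoter, the A and B box. Long terminal repeats of endogenous retroviruses carry RNA polymerase II promoters. Satellites are tandem arrays near centromeres. No table of repeat families was used, so members were grouped by their sequence only.

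To show which sequences recurred, member windows were grouped when they shared 20 or more 14-base words with a representative on either strand. The 8 largest groups held 456 of the 924 members (49.4%), whereas 159 members (17.2%) shared that many words with no other. The representatives of groups 1, 2 and 6, on which the RUNX and NF-kB results below turn, and of group 4, whose genome copies held a summit more often than those of any group but the first, are given here in mm10, plus strand, 5′ to 3′, with matches to the RUNX, AP-1, NF-kB, PU.1/ETS or B box motif in capitals.
Group 1 representative, chr1:9791775-9791975, in an exon of 1700034P13Rik and 6232 bp from a start site of Sgk3: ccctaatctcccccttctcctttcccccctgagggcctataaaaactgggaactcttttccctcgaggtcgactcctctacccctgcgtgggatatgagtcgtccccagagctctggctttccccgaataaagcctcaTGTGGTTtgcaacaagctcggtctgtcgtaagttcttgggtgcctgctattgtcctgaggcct
Group 1 member near Oasl2 and Oasl1, chr5:114888016-114888216, intergenic, with NF-kB, AP-1 and RUNX motifs in that order: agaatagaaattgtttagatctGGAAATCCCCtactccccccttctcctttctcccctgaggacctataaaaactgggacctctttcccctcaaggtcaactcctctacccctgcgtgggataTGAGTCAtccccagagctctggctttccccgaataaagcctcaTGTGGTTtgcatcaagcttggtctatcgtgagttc
Group 2 representative, chr3:90342920-90343120, in an exon of Gatad2b: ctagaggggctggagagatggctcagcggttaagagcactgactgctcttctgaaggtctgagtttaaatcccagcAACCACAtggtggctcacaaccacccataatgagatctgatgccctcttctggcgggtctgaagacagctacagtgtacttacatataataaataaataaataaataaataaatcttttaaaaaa
Group 6 representative, chr7:80885799-80885999, intergenic: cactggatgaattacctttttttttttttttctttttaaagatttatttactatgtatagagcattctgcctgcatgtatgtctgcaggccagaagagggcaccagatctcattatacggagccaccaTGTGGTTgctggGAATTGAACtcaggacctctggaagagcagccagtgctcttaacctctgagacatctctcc
Group 4 representative, chr13:119297521-119297721, intergenic, with none of these motifs: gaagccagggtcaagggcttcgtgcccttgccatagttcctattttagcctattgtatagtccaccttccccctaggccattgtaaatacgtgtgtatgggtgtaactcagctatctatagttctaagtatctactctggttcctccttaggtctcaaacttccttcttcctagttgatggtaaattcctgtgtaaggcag

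The letters of group 2 and group 6 are those of the B2 element, read from opposite strands. Their representatives shared 12 of the 14-base words, and 63.5% of the group 6 copies in the genome (15253 of 24012) lay within 100 bp of a group 2 copy, so that both were parts of one family. Group 1 was the most frequent sequence (102 members on 19 chromosomes, 11.04% of all), followed by group 2 (72), group 3 (64), group 4 (62), group 5 (51), group 6 (43), group 7 (39) and group 8 (23).

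Repeated sequence was rare at accessible summits of chromosomes 1 to 19. Of all windows of this length on chromosomes 1 to 19, 12.7% met the same rule, which was 8.05 times the share among summits. By chromosome the share of members ranged from 0.990% on chromosome 4 to 2.06% on chromosome 16, and the genome share from 9.62 to 14.9%. On X, 26 of 1207 regions met the rule (2.15%), and on Y, which had few regions, 8 of 24 (33.3%, interval 17.97 to 53.3%). Among the other regions 25952 of 57462 (45.2%) had no repeat base in the window, and 4.63% had 50% or more. The lowest members had 181 repeat bases (90.05%, 8 regions, median score 319.5) and the highest other regions 180 (89.6%, 26 regions, median score 515), while 502 members (54.3%) lay in repeats with every base.

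Members had lower scores than the other regions. The median score was 534 (interquartile range 376 to 782.75), compared with 834 (534 to 1272) in the 57462 others. The score is the authors' own value for a summit, and its scale is not stated. On the log2 scale the difference was -0.59 ± 0.03 (SE clustered by chromosome, a ratio of 0.663), with lower means on 19 of 19 chromosomes (adjusted p = 6.32e-13, n = 19 chromosomes, Benjamini-Hochberg over 5 measures). Members made up 3.13% of the regions in the lowest score quartile, 1.74% and 1.02% in the next ones and 0.382% in the highest. The median score declined with repeat content over most of its range, from 911 below 10% repeat bases to 690 between 30 and 40% and 544 between 80 and 90%. Part of the gap went with position, since away from start sites the difference was -0.44 ± 0.03. The score of a region is a maximum over its summits, of which members had fewer, and among regions with 1 summit (802 members) the difference was -0.49 ± 0.03.

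**Figure D1:**
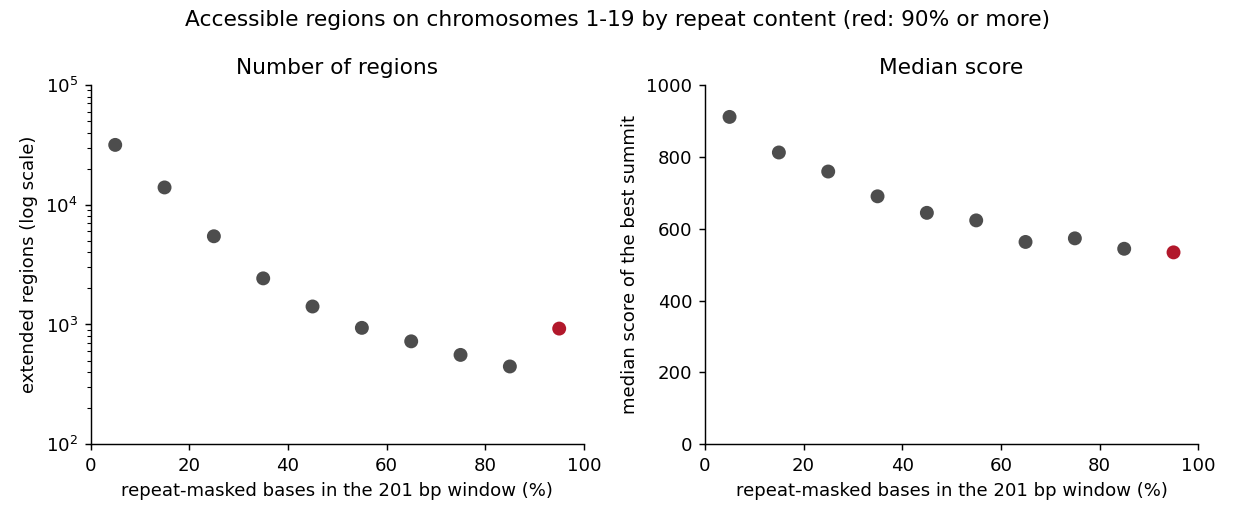
Number of extended regions (left, log scale) and median score of their best summit (right) by the percentage of repeat-masked bases in the window around it, in steps of 10 points, on chromosomes 1-19. The count falls from 31574 to 446 and is 924 in the last step (red, the members), where the median score is lowest at 534.

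Peaks of members were also narrower, and their regions held fewer summits. The median width of the reference peak was 222 bp (interquartile range 186.75 to 259), compared with 231 bp (192 to 301). The log2 difference was -0.16 ± 0.02 (adjusted p = 7.67e-08, n = 19 chromosomes, lower on 18 of them), and away from start sites it was -0.05 ± 0.02 (adjusted p = 0.0135, n = 19 chromosomes). A member region held 1.23 summits on average, and the others 1.43 (a difference of -0.198, adjusted p = 5.13e-06, n = 19 chromosomes). Away from start sites this difference was -0.0903 (adjusted p = 0.00146, n = 19 chromosomes), and among regions with a score at or above the median it did not pass (-0.139, adjusted p = 0.213, n = 19 chromosomes). The unbroken masked stretch around the summit, which the rule makes long, had a median of 394.5 bp. In windows 1000 bp away that overlapped no reference peak, the mean share of repeat bases was 44.3% beside members and 25.8% beside the others.

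Members were mostly away from start sites. A summit lay within 1000 bp of an annotated start site in 55 members (5.95%, 95% interval 4.60 to 7.67%), against 24.9% of all regions and 25.2% of the others. The difference was -19.3 ± 0.97 percentage points (adjusted p = 5.12e-13, n = 19 chromosomes, lower on 19 of them). It came largely from protein-coding genes, whose start sites were near 26 members (2.81%) but 21.8% of the others. For pseudogenes the shares were 1.08% and 0.848%, and their intervals overlapped. Inside protein-coding genes and away from start sites lay 42.2% of members (interval 39.1 to 45.4%) and 24133 of the 57462 others, whose share was inside that interval, whereas 51.8% of members and 32.8% of the others lay away from start sites and outside protein-coding genes. Outside genes of any type were 45.9% of members and 28.2% of the others. Of the 390 members inside genes 14 were in an exon and the rest in introns, and 2 members in all lay in coding sequence. The median distance to a protein-coding start site was 13351.5 bp for members and 9089.5 bp for the others.

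Member windows had a mean GC content of 46.7% ± 5.36 (SD) against 51.4% ± 9.17 in the others, a difference of -4.76 ± 0.33 points (SE, adjusted p = 4.52e-11, n = 19 chromosomes). CpG dinucleotides, which methylation depletes over evolutionary time, were absent from 31.8% of member windows and 12.1% of the others. Away from start sites the GC difference was -1.70 ± 0.29 points.

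Members differed in how repeated their letters were. The 76 bases at the summit, which is the length of a sequencing read, occurred once in the primary chromosomes for 758 of 924 members (82.0%) and for 99.2% of the others. With 38 bases, the shortest read kept after trimming, this fell to 470 members (50.9%), against 98.1%. A 24-base word of a member window occurred a median of 32.5 times in the genome. The median score did not follow this count, at 515 in the 115 members with words found once and 534 in the 256 members with words found 100 times or more. Between these members the lower quartile fell from 402 to 349, and the upper quartile rose from 706 to 780. Reads from the 166 members with a repeated 76-base summit could have come from another copy. Their median score was 510 (interquartile range 315 to 769.25), compared with 539 (393 to 791) in the rest.

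The members with the highest scores lay in a satellite array at the start of chromosome 9. The sequence at the top summit is shown because it carries the highest score on chromosomes 1 to 19.
Summit with the highest score, chr9:3002058-3002258: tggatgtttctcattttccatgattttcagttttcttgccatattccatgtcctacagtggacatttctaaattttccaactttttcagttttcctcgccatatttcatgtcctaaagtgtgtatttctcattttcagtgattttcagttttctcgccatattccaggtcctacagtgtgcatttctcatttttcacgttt
The 500 bp to each side of this summit matched itself best at a shift of 234 bases (88.9% identity), and the same shift was best at 4 further summits of this stretch, with 65.4 to 72.5% identity. This is the unit of the mouse major satellite, the repeat of pericentromeric heterochromatin. The first 3.1 Mb of chromosome 9 held 7 members with scores of 2781, 2758, 1916, 1556, 1443, 341 and 290, and together 27 summits. The reference peak chr9:3001933-3002717 alone was 785 bp wide in a region of 10 summits, and chr9:3023326-3024025 (score 2758) lay 12 bp from a start site of the predicted gene Gm10718. The 38 bases at the summit recurred for all 7 members and the 76 bases for 5 of them, so that the origin of their reads cannot be told from these lists. Copies were counted on the assembled primary chromosomes only. Whether reads of satellite copies outside the assembly were placed here and raised these scores was not tested. They were also 4 of the 5 highest scored members near a protein-coding start site, at Gm10718, Gm10720, Gm10719 and Gm10717. The remaining one was in an intron of Abcc4, an efflux transporter gene, at chr14:118700184-118700282 (score 1188, 708 bp from the start site). Leaving out these 7 members moved the log2 score difference to -0.60.

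Outside the satellite the highest score was 1929, at chr13:63007477-63007854 in an intron of 2010111I01Rik. This member belonged to group 7 and, unlike its representative, had matches to the PU.1/ETS motif, here in capitals with a B box match. PU.1 is the ETS factor that opens macrophage enhancers.
Group 7 member in 2010111I01Rik, chr13:63007557-63007757: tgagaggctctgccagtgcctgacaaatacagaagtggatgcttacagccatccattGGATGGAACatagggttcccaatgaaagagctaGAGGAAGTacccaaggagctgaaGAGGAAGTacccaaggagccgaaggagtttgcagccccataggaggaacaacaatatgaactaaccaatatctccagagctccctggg
Group 7 representative in an intron of Adam22 (score 1260), chr5:8353782-8353982: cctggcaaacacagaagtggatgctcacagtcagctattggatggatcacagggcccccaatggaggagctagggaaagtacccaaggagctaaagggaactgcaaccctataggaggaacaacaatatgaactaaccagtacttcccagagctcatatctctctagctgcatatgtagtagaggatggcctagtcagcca
The next was at chr6:5339309-5339676 (score 1864), 41027 bp from Pon2, in no group of the 8 and with an AP-1 and an NF-kB match in its window. The 76 bases at both summits occurred once in the genome.

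By group, the median score was 443.5 in group 1, 462.5 in group 2, 628.5 in group 3, 639 in group 4, 623 in group 5, 476 in group 6, 573 in group 7 and 544 in group 8. The interquartile ranges of these groups overlapped. The medians of all 8 groups were below that of the other regions. Groups were formed from the sequences, so their differences were not tested.

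**Figure D2:**
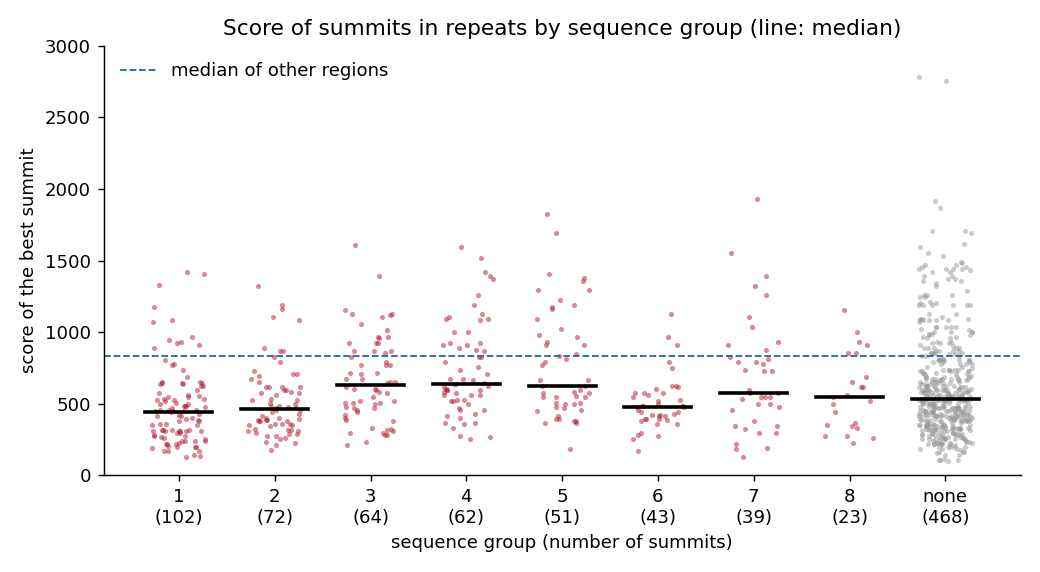
Score of the best summit of each member by sequence group, with the number of members in brackets, the median as a black line and the median of the other regions (834) as a dashed line. Medians lie between 443.5 (group 1) and 639 (group 4), and the highest scores, 2781 and 2758, belong to satellite members in none of the 8 groups.

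To ask which transcription factor sites these summits carried, 12 consensus motifs were searched on both strands of the window and compared between members and other regions in one fit per motif. RUNX, B box, NF-kB and STAT6 motifs were more frequent in members, and the other motifs were less frequent, except C/EBP, which did not pass the test. The adjusted p-values below are Benjamini-Hochberg over the 12 motifs. They measure the spread among regions of a pooled list, and members of one repeat family are not independent of each other.

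The RUNX motif (TGTGGTT), bound by the Runt factors of blood cells, was found in 252 members (27.3%), against 8.31% of all regions and 8.01% of the others. The difference was 19.3 ± 2.08 points (adjusted p = 8.67e-08, n = 19 chromosomes, higher on 19 of them). It was 8.68 points among regions with a score at or above the median and 9.70 points when members were chosen over 200 bp to each side (adjusted p = 0.00122 and 0.000149, n = 19 chromosomes). Groups 1, 2 and 6 held 173 of these members. In the 707 members outside these groups the share was 11.2%, a difference of 3.17 points (adjusted p = 0.0178, n = 19 chromosomes).

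The B box (GTTCNANNC), the internal promoter element of RNA polymerase III genes, was present in 166 members (17.97%), against 6.16% of all regions (difference 11.99 ± 1.62 points, adjusted p = 1.22e-06, n = 19 chromosomes). It was also present in 11.8% of windows 1000 bp beside members, where repeats are common.

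The NF-kB motif, bound by the Rel factors that LPS activates, was found in 99 members (10.7%), against 5.38% of all regions (difference 5.42 ± 0.97 points, adjusted p = 3.95e-05, n = 19 chromosomes, higher on 16 of them). This rested on group 1, which held 78 of the 99. Among regions with a score at or above the median the difference did not pass (3.69 points, adjusted p = 0.0817, n = 19 chromosomes). Without group 1 the share was 21 of 822 members (2.55%), and the difference turned to -2.74 points (adjusted p = 7.47e-05, n = 19 chromosomes). The STAT6 motif, a gapped palindrome bound by the factor that IL-4 activates, was found in 8.98% of members, against 6.91% of all regions (adjusted p = 0.0148, n = 19 chromosomes). It too turned without group 1, to 6.20% of members (adjusted p = 0.335), and its difference did not pass with GC content and start sites as covariates (0.68 points, adjusted p = 0.427), away from start sites (1.48 points, adjusted p = 0.114) or at a score at or above the median (4.28 points, adjusted p = 0.0664, n = 19 chromosomes).

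AP-1, PU.1/ETS and IRF motifs were less frequent than in the other regions. AP-1 (TGACTCA or TGAGTCA), the site of Fos and Jun factors, was found in 113 members (12.2%), against 17.4% of all regions (difference -5.20 ± 1.12 points, adjusted p = 0.00025, n = 19 chromosomes). PU.1/ETS (GAGGAAGT) was found in 42 members (4.55%), against 10.1% (-5.64 ± 0.70 points, adjusted p = 4.75e-07, n = 19 chromosomes). Both were more frequent at the summit than in the windows 1000 bp to its sides, where AP-1 was found in 3.28% and PU.1/ETS in 0.722% of 1801 windows. Those windows overlapped no reference peak and held 44.3% repeat bases on average, so places within a repeat were not compared here. Across the 918 members with such windows the difference was 9.04 points for AP-1 (adjusted p = 8.69e-08) and 3.87 points for PU.1/ETS (adjusted p = 0.000439, n = 19 chromosomes). The IRF motif, the site of interferon regulatory factors, was found in 17 members (1.84%), against 3.73% of all regions (adjusted p = 0.00025, n = 19 chromosomes). IRF was also less frequent at the summit than in the windows to its sides (1.85% against 3.27%, -1.42 points, adjusted p = 0.0296, n = 19 chromosomes). Among regions with a score at or above the median (208 members) the differences from the other regions did not pass. They were -4.67 points for AP-1, -3.98 for PU.1/ETS and -1.07 for IRF (adjusted p = 0.0931, 0.0523 and 0.343, n = 19 chromosomes). C/EBP (TTGCNNAA) was found in 10.4%, against 11.6% (adjusted p = 0.36, n = 19 chromosomes). It passed as less frequent with GC content and start sites as covariates (-3.77 points, adjusted p = 0.00923, n = 19 chromosomes).

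CTCF, SP/KLF, CRE and MEF2 motifs were each found in 5 members or fewer. CTCF, the insulator factor, had a match in 5 members (0.541%), against 3.66% of all regions (adjusted p = 4.44e-12, n = 19 chromosomes). SP/KLF (GGGGCGGGG) had 3 (0.325%), against 4.57% (adjusted p = 1.77e-11, n = 19 chromosomes). That difference turned to 0.25 points (adjusted p = 0.427, n = 19 chromosomes) once GC content and start sites were in the fit. CRE (TGACGTCA) and MEF2 had 1 member each (0.108%), against 1.07% and 0.947% (adjusted p = 5.37e-08 and 2.9e-07, n = 19 chromosomes). At a score at or above the median the MEF2 difference did not pass (-0.41 points, adjusted p = 0.364, n = 19 chromosomes).

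**Figure D3:**
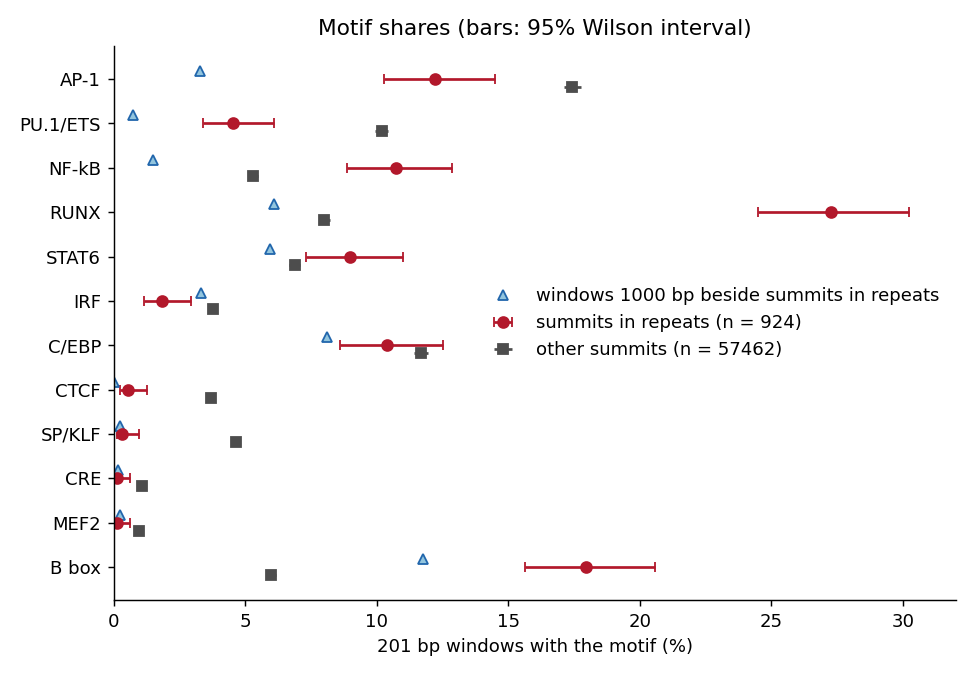
Percentage of windows with each of 12 motifs at summits in repeats (red circles), at other summits (grey squares, both with 95% Wilson intervals) and in windows 1000 bp beside the summits in repeats (blue triangles). RUNX reaches 27.3% in repeats against 8.01% at other summits, while AP-1 lies between its flanks (3.28%) and the other summits (17.4%).

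Matches of AP-1 and PU.1/ETS lay close to the summit. The median distance was 26 bp for AP-1 in members and 28 bp in the others, and 20.5 bp for PU.1/ETS in members and 30.5 bp in the others. Within 50 bp of the summit were 79.6% of the AP-1 matches of members. NF-kB matches of members lay farther away, at a median of 65.5 bp, against 35.5 bp in the others. RUNX matches were at 39 and 38 bp.

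The frequent motifs of group 1 lay at a fixed place in the repeat, and this did not hold for every motif and group. Places are counted in bases from the middle of the representative, in its direction. In group 1 the NF-kB match was centred at -102.5 in most members (74 of 78 within 5 bases of it), the RUNX match at 41 (76 of 79) and the AP-1 match at -2 (28 of 28), as in the member beside Oasl1 shown above. In group 2 the RUNX match lay within 5 bases of its median place in 54 of 61 members, and in group 6 in 22 of 30. AP-1 matches of the B2 groups were less fixed (3 of 8 in group 2 and 6 of 10 in group 6), and those of group 7 were not (0 of 4), nor were the 4 PU.1/ETS and 4 C/EBP matches of group 3 (0 each). Between NF-kB and RUNX matches of one group 1 window the median spacing was 143.5 bp, with quartiles of 142.5 and 143.5 bp (59 windows). Of these 59 windows 18 also had the AP-1 match. The summits of group 1 fell at -28 (quartiles -48 and -9), between the NF-kB and RUNX places and a median of 29 bp from the AP-1 match where there was one. In the B2 groups the RUNX match was 32 bp (group 2) and 24.5 bp (group 6) from the summit, and the B box 49 and 40 bp.

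To see whether accessible copies differed from the rest of their family, the copies of each representative on chromosomes 1 to 19 were located with the same rule of 20 shared words. This comparison was chosen after the members' values were seen, and is a description without a test. Group 1 had 1099 copies, of which 120 (10.9%) held a summit. Group 4 had 1513 copies, 76 of them (5.02%) with a summit. In the large families the share was lower than in groups 1 and 4. It was 0.464% of 67703 copies in group 2, 0.740% of 19319 in group 3 and 0.264% of 23875 in group 5. In group 6 it was 0.691% of 24012, in group 7 0.0868% of 76071 and in group 8 0.0855% of 45635. The share of all genome windows of this length that hold a summit was not computed, so no group is called depleted or enriched. Where a copy has no unique sequence, reads may be placed elsewhere. The 76 middle bases were unique in 70.9% of group 1 copies, 90.8% of group 6 copies and 47.8% of group 7 copies. Among unique copies alone 11.04% of group 1 and 0.250% of group 7 overlapped a peak, against 11.4% and 0.180% of all copies.

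RUNX and NF-kB matches of these groups were also common in copies without a peak. Windows were placed in copies without a peak at the same places in the repeat as the members' summits. Motifs were compared for members only, and not for all copies with a summit (314 in group 2 and 166 in group 6). The copies without a peak did not have to meet the repeat rule. In group 1, NF-kB was found in 78 of 102 members (76.5%, 95% interval 67.4 to 83.6%) and in 65.6% of such windows in 974 copies. RUNX was found in 77.5% (interval 68.4 to 84.5%) and 71.6%, and AP-1 in 27.5% (19.7 to 36.8%) and 21.4%, so that both intervals included the value of the other copies. In group 2, RUNX was found in 61 of 68 placed members (89.7%) and 77.9% of windows in other copies. Over all 72 group 2 members the RUNX share was 88.9%, with an interval of 79.6 to 94.3%, which did not include the value of the other copies. In group 6 RUNX was found in 69.8% of 43 members (interval 54.9 to 81.4%) and in 80.9% of windows in other copies, which lay inside that interval.

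AP-1 matches were rare in the copies of groups 2 to 8 and were more frequent in the members of some of these groups. They were found in 11.8% of group 2 members and 3.83% of windows in other copies, in 23.3% and 6.19% in group 6, and in 4 of 38 members (10.5%) and 0.262% in group 7. Over the 445 members that could be placed, 54 (12.1%, 95% interval 9.42 to 15.5%) had an AP-1 match, where the other copies gave 6.83%, and the members' share was higher in 6 of 8 groups. For PU.1/ETS it was 9 members (2.02%, interval 1.07 to 3.80%), where the other copies gave 0.404%. C/EBP had 8.09% and 8.08%. The B box went the other way, with 21.3% in members (interval 17.8 to 25.4%) and 32.1% in other copies. It was 45.6% against 77.1% in group 2, 48.3% against 65.7% in group 3 and 65.1% against 89.4% in group 6.

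**Figure D4:**
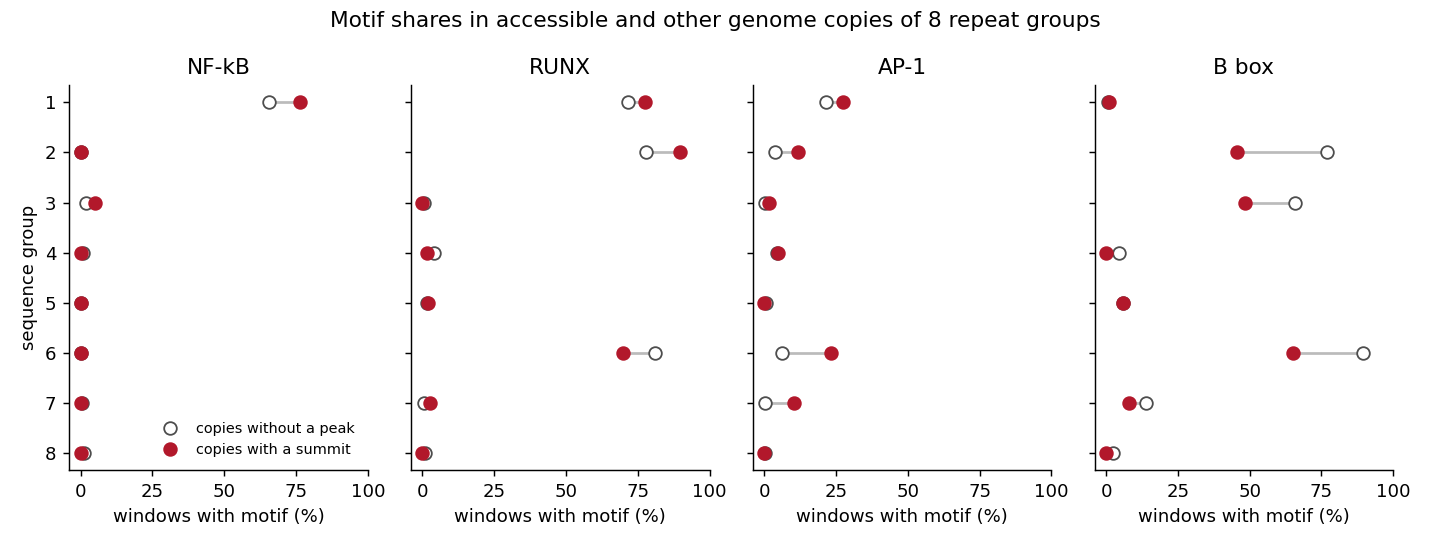
Percentage of windows with the NF-kB, RUNX, AP-1 or B box motif in the members of each sequence group (red) and in genome copies of the same repeat without a peak, at the same places in the repeat (open). NF-kB is frequent in group 1 only, and the B box is less frequent in members of groups 2, 3 and 6 (45.6, 48.3 and 65.1%) than in their other copies (77.1, 65.7 and 89.4%).

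Copies with a summit also lay in other surroundings. In group 1, 64.2% of copies with a summit (95% interval 55.3 to 72.2%) had another accessible region, itself no member, between 1000 and 10000 bp away, compared with 20.6% of copies without a peak (18.2 to 23.3%). The intervals were apart in each of the 8 groups. The smallest ratio was in the B2 groups, which are common in gene-rich DNA (81.5% and 53.5% in group 2, 84.9% and 53.9% in group 6). In group 7 the shares were 80.3% and 11.2%, and in group 8 they were 59.0% and 8.90%. The median distance to a protein-coding start site was 12712 bp for group 1 copies with a summit and 37059.5 bp for those without a peak. The part of read placement or of GC content in these differences was not tested.

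**Figure D5:**
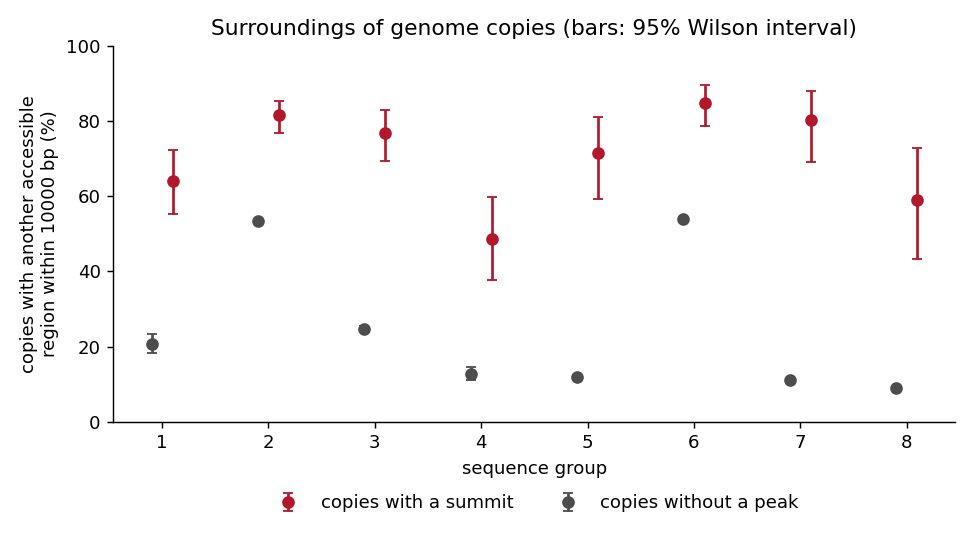
Percentage of genome copies of each sequence group with another accessible region between 1000 and 10000 bp away, for copies with a summit (red) and copies without a peak (grey), with 95% Wilson intervals. Copies with a summit reach 48.7% (group 4) to 84.9% (group 6), and copies without a peak 8.90% (group 8) to 53.9% (group 6).

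Scores of members with and without a motif overlapped within a group. In group 1 the median score was 443.5 in the 78 members with an NF-kB match and 412 in the 24 without, and 481 and 406.5 with and without an AP-1 match. In group 5 it was 823 in the 20 members with a C/EBP match and 573 in the 31 without. The order was the opposite for STAT6 in group 8 (515 with and 588 without a match), AP-1 in group 6 (434.5 and 486), RUNX in group 1 (439 and 448) and the B box in groups 2, 3 and 6. Over the 12 such pairs the median was higher with the motif in 6 and lower in 6, and the interquartile ranges overlapped in all 12. Over all members it was 476 with and 563 without a RUNX match, 486 and 544 for NF-kB, and 476 and 544 for the B box.

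Near genes, members were compared with lists of stimulus genes. A member lay within 50000 bp of the start of 7.29% of all 20780 autosomal protein-coding genes. This held for 1 of 25 LPS response genes, Il12b, which encodes the p40 subunit of IL-12 (score 189, 40207 bp upstream). Among 19 IL-4 response genes only the chemokine gene Ccl17 had one (score 274, 30952 bp downstream, group 2). Of 19 interferon-stimulated genes 4 had a member (21.1%, 95% interval 8.51 to 43.3%), namely Oasl1, Oas1a, Ifit1 and Gbp2, with 6 members between them. These genes encode proteins of the antiviral response, namely oligoadenylate synthetase family members, an RNA-binding inhibitor of translation and a guanylate-binding GTPase. Of all regions counted within that distance, members were 3.31% for the interferon genes (6 of 181) and 1.61% for all genes. They were 0.358% for the LPS list and 0.559% for the IL-4 list. No interval was computed for these shares of regions. Within 20000 bp the interferon list had 2 of 19 genes with a member (interval 2.94 to 31.4%, which includes the share of all genes), the LPS and IL-4 lists had 0 (upper limits of 13.3% and 16.8%), and all genes had 3.21%. The Wilson intervals of the LPS and IL-4 lists included the share of all genes.

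The highest scored of these members was at chr5:120883968-120884259, in an intron of Oas1g and 23411 bp downstream of the start of Oas1a (score 544), followed by chr5:114931452-114931947 in an intron of Oasl1 (score 534). The group 1 member at chr5:114887992-114888267 (score 505) lay 35124 bp upstream of Oasl1 and 8820 bp from a start site of Oasl2. Its window held the NF-kB, AP-1 and RUNX matches of the group, and its 76 bases at the summit occurred once in the genome. The member downstream of the start of Ifit1, at chr19:34652467-34653312 (score 476), had a RUNX match and a peak of 846 bp, the widest among members. The one near Gbp2, at chr3:142597616-142597859 (score 341), lay in an intron of Gbp2b. Oas, Oasl, Ifit and Gbp genes are families of similar copies, whose own sequence can recur.

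Of the 15 macrophage marker genes 5 had a member within 50000 bp (33.3%, 95% interval 15.2 to 58.3%), where all genes gave 7.29%. Within 20000 bp it was 2 of 15 (13.3%, interval 3.74 to 37.9%), where all genes gave 3.21%. Members were 3.18% of the regions counted within 50000 bp of them (5 of 157), against 1.61% for all genes. No interval was computed for these shares of regions. The macrophage list had 157 regions for 15 genes, and all genes had 104522 regions for 20780. The 5 genes are outside the rule by which regions were named, and are given since the count is small. They were Fcer1g, the gamma chain of Fc receptors (score 923, 34104 bp upstream), Adgre1, which encodes F4/80 (737, 40363 bp downstream), Lpl, lipoprotein lipase (524, 8740 bp downstream), Ctss, cathepsin S (458, 14591 bp downstream), and Spi1, which encodes PU.1 (421, 49171 bp upstream). No member lay near the 14 marker genes of other tissues, which had 64 regions within that distance, compared with 157 for the macrophage genes. The interval of this 0 of 14 (0 to 21.5%) includes the 7.29% of all genes.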

How the data were processed

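ATAC-seq libraries of BMDMs were single-end sequenced (76 bp). The authors used BBDuk for adapters, Trimmomatic (0.39) for trimming, the aligner within ShortStack for placement on mm10, SAMtools (1.9) for filtering and MACS2 (2.2.6) for peaks, without a local background and with duplicates kept (versions from the submitters' processing notes). Peaks had to recur between replicates. The 3 deposited lists (reference peaks, extended regions, summits) hold positions and, for summits, the authors' score, whose scale is not stated. No shift towards the Tn5 cut site is named, and how multi-mapping reads were placed was not tested.

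Repeat bases were read as lower-case letters of the RefSeq copy of the same assembly (30.6 to 35.8% of a chromosome), whose masking tool is not given in the sources used here. All entries ended inside 21 of 21 chromosomes. Start sites came from GENCODE M21. Members were compared with all other autosomal regions by ordinary least squares (1 row per region, standard errors clustered by 19 chromosomes, two-sided). The fit was tested on simulated data in which regions were drawn independently, so copies of one repeat family were not covered. Shares have 95% Wilson intervals, which cover counting error only. Copies of a group's representative shared 20 or more 14-base words with it on one diagonal. Regions were named by rule: the 5 highest scores, group representatives, and the 5 highest scores within 1000 bp of a protein-coding start and within 50000 bp of a gene of the LPS, IL-4 or interferon list. The members, gene lists and tests were chosen with earlier results of these data known. Python 3 with numpy, pandas, scipy, numba and statsmodels was used.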

Additional observations from a re-analysis of the deposited data

How the results depend on the processing

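Width, start site share and GC content kept their direction and passed the test under each alternative tried for them, and so did the score under those that do not select on the score itself, with a log2 difference from -0.64 (windows with every base masked) to -0.41 (GC content and start sites as covariates). Keeping only regions with a score at or above the median narrows the score by construction (-0.21) and says nothing about its stability. It left 208 members, and the difference in summits per region was then -0.14 (adjusted p = 0.213, n = 19 chromosomes), with 2 motifs more frequent and 3 less frequent (4 and 7 among all regions), since NF-kB, STAT6, AP-1, PU.1/ETS, IRF and MEF2 did not pass. The number of members was 502 with every base masked, 575 with 200 bp to each side of the summit, 1310 with 50 bp and 1370 at 80%. Against the members' own flanks 7 motifs were more frequent and 1, IRF, less frequent. The difference turned to 9.04 points for AP-1, 3.87 for PU.1/ETS, 2.23 for C/EBP, 0.545 for CTCF and 0.109 for SP/KLF, since this is another comparison. CRE and MEF2 did not pass there (adjusted p = 0.717 and 0.575, n = 19 chromosomes). Differences of NF-kB ranged from 3.24 to 10.05 points over the definitions of a member, of the B box from 7.12 to 13.5, of STAT6 from 1.74 to 4.61, of AP-1 from -7.45 to -2.36 and of PU.1/ETS from -7.97 to -2.67. Away from start sites SP/KLF was -0.65 points and CRE -0.40. With GC content and start sites as covariates SP/KLF turned to 0.249 points. C/EBP passed as less frequent at 80% (-2.28 points, adjusted p = 0.0163), with 50 bp to each side (-2.46, adjusted p = 0.0231) and with the covariates (-3.77, adjusted p = 0.00923, n = 19 chromosomes), whereas it turned to 2.64 points, without passing (adjusted p = 0.0889), with 200 bp to each side. Without sequence group 1, an alternative chosen after seeing the data, 2 motifs were more frequent, and NF-kB turned to -2.74 points and STAT6 to -0.677. Without groups 1, 2 and 6, also chosen afterwards, 2 motifs were more frequent, NF-kB was -2.32, STAT6 -0.0918 and C/EBP 1.77 (adjusted p = 0.332, and 0.132 against the flanks, n = 19 chromosomes). Keeping only regions with 1 summit was also chosen after seeing the data. Within 20000 bp a member was near 0 LPS response genes, 0 IL-4 response genes and 2 interferon-stimulated genes. With 40 shared words the 8 largest groups held 308 members. Apart from those named, the causes were not tested. No paired analysis was possible because the lists are pooled over libraries and their columns carry no replicate number, so that no library could be left out either. Depth per library is unknown.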
